A study of Mus musculus with 6 samples.

Results

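The genes of protein folding and of the unfolded protein response were examined in RNA of sorted kidney cells of *Trf1+/+* and *Trf1flox/flox* mice. They were chosen by symbol alone, without use of their values: the heat shock protein families HSP70, HSP110, HSP90 and HSPB, the chaperonins, the J-proteins, the BAG co-chaperones, the protein disulfide isomerases named Pdia, calreticulin, calnexin and the regulators *Xbp1*, *Atf4*, *Atf6*, *Atf6b*, *Ddit3*, *Ern1* and *Sel1l*. Of the 12125 genes listed in the deposited table, 86 met this rule, and 77 of these reached 10 normalized counts in 3 or more libraries and were tested. The 9 others, which were *Dnajc27*, *Ern1*, *Hspa12a*, *Hspa1b*, *Hspb1*, *Hspb2*, *Hspb6*, *Hspbap1* and *Hyou1*, are given here by level only.

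All mice carried Col1a2-CreERT2, a Cre recombinase that tamoxifen activates in cells that use the *Col1a2* promoter, and a KFP reporter (Katushka fluorescent protein) that Cre switches on. The *Trf1flox/flox* mice also carried floxed alleles of *Trf1*, which encodes a shelterin protein of the telomere, and the *Trf1+/+* mice carried wild-type alleles. Male and female mice of both genotypes were 6 to 8 weeks old when tamoxifen began, and they received it 3 times a week for 8 weeks, so no group is free of tamoxifen or of Cre. For each of 3 *Trf1+/+* and 3 *Trf1flox/flox* libraries, 500 kidney cells were sorted by CD29, a surface integrin, and by KFP. The RNA was copied from its poly(A) end with template switching and amplified by PCR, and the libraries do not keep the strand. The labels give no sex, litter or batch for a library, and the replicate numbers used here pair no mice.

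Chaperones bind unfolded stretches of other proteins. HSP70 proteins do so in cycles of ATP hydrolysis that J-proteins start and nucleotide exchange factors such as BAG and HSP110 proteins end, HSP90 acts on clients that are nearly folded, and chaperonins enclose them in a ring. In the endoplasmic reticulum (ER), calnexin and calreticulin hold glycoproteins and protein disulfide isomerases pair their cysteines. When unfolded proteins gather there, the sensors IRE1 (*Ern1*), ATF6 and PERK raise the ER chaperones and cut back translation, while heat shock factor raises the chaperones of the cytosol.

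Short elements known from these pathways were searched in the promoters of the members. They are shown because they define a set of ER chaperones that does not depend on expression in these data. The ER stress element (ERSE) was searched as CCAAT and CCACG separated by 9 bases, on both strands, in RefSeq promoters of GRCm38 that run from 250 bases before to 50 bases after a start. Of the 69 members with at least 1 such promoter, 6 held it in any of theirs (8.70%), against 0.186% of the 9136 listed genes with a promoter and 0.119% of all 32851 promoters. The 7 elements are printed in the direction of the motif, with CCAAT and CCACG in capitals and 5 bases on either side:
*Hspa5*, chr2:34772020-34772048, + strand, within an annotated exon of *Hspa5* in GENCODE: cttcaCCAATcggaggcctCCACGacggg
*Hsp90b1*, chr10:86705633-86705661, - strand: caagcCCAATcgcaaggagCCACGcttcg
*Hsp90b1*, chr10:86705528-86705556, + strand: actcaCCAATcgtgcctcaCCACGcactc
*Calr*, chr8:84847070-84847098, + strand: atgggCCAATgagggtcgaCCACGcgttg
*Canx*, chr11:50325795-50325823, - strand: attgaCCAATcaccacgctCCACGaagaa
*Pdia6*, chr12:17266486-17266514, + strand: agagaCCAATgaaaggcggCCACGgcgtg
*Dnajc3*, chr14:118937822-118937850, + strand: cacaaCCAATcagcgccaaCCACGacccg
The element of *Hspa5* began 65 bases before the RefSeq start and those of the other genes between 98 and 212 bases before theirs. Except for that of *Hspa5*, no element overlapped an exon in the GENCODE annotation.

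The stretch before the start of *Calr* on its own strand shows the surroundings, chr8:84846942-84847181, where the capitals are CGTGG and ATTGG, the element read on the other strand:
*Calr* promoter: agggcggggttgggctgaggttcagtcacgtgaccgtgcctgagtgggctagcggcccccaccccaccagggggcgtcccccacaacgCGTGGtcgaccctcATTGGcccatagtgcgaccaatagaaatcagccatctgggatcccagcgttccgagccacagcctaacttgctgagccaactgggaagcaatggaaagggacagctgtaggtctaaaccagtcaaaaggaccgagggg

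The heat shock element was searched as the blocks GAA, TTC and GAA, or TTC, GAA and TTC, each separated by 2 bases of any kind. It was found in promoters of 4 members, *Dnajb6*, *Hspd1*, *Hspe1* and *Hsph1* (5.80%), against 0.591% of listed genes. No match was found for *Dnajb1*, *Hspa1a*, *Hspa1b*, *Hspb1* and *Bag3*. An exact search misses elements that differ from the pattern or lie outside the stretch, so a promoter without a match may still hold one. The elements of *Dnajb6*, whose groups did not overlap (described with the J-proteins), and of the promoter that *Hspd1* and *Hspe1* share are shown with the element in capitals:
*Dnajb6*, chr5:29735847-29735869, + strand, in annotated exons of *Dnajb6* and *Gm5129*: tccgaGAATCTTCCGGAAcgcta
*Hspd1*, chr1:55088054-55088081, - strand, in an annotated exon of *Hspd1*, with overlapping elements: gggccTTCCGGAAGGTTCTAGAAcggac
TGACGTGG, an element of the unfolded protein response, was found in *Dnajc25* only (1.45% of members and 1.03% of listed genes), and TGATGNAA, to which ATF4 and its partners bind, in *Hspa14* only (1.45% and 2.52%). The promoter table held no entry for *Atf6*, *Bag4*, *Cct4*, *Dnajc11*, *Dnajc12*, *Dnajc18*, *Dnajc2*, *Dnajc22*, *Dnajc30*, *Dnajc5*, *Hsp90aa1*, *Hsp90ab1*, *Hspa13*, *Hspa8*, *Hspa9*, *Hspb2* and *Hyou1*. A match is a string of letters and not a site shown to be bound.

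The listed genes held 10263382 to 12248797 reads per library, and the deposited value of a gene is its reads divided by the size factor of the library, so that a read was worth 0.689 to 1.09 normalized counts. *Terf1*, the gene of TRF1, was read at 0.891, 253 and 235 in replicates 1, 2 and 3 as labelled of *Trf1+/+* and at 110.0, 7.65 and 12.4 in those of *Trf1flox/flox*. The values of both replicates 1 go against their labels, near 0 in *Trf1+/+* and well above the rest of its group in *Trf1flox/flox*, and all libraries are used as labelled. The library labelled *Trf1+/+* replicate 1 also had the fewest genes above 0 (8967, against 9733 to 11593) and a median normalized count of 13.4, against 118 to 148. Fibroblast markers were nearly absent: 2 of 11 were listed, *Col1a2* had at most 2 reads in any library and the pair summed to 1.66 to 94.6 in *Trf1+/+* and 2.58 to 98.4 in *Trf1flox/flox* libraries. All 12 proximal tubule markers were listed and summed to 41553 to 198203 and 47672 to 199201, and all 7 markers of the loop, distal tubule and collecting duct to 72919 to 119766 and 53983 to 153262. Globin genes and *Alas2* ranged from 121 to 52403, endothelial markers (2 of 7 listed, defining *Kdr*, *Emcn* and *Cdh5* not among them) from 1.72 to 307 and immune markers (4 of 8 listed, *Ptprc*, *Cd68* and *Adgre1* not among them) from 0 to 2513. None of the 3 podocyte markers was listed. Immediate early genes (11 of 13 listed) summed to 2122 to 2819 in *Trf1+/+* and 1472 to 2387 in *Trf1flox/flox* libraries. What part these cells have in the values below was not tested, and in such bulk samples fewer cells of a type and less RNA per cell cannot be told apart.

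Folding genes were read at a higher level than the table as a whole, with medians of 299 to 702 normalized counts per library against 13.4 to 148. Of the 86 members, 53 (61.6%) had more than 3 reads in all 6 libraries, against 41.2% of all listed genes, and 22 (25.6%) were at 0 in at least 1 library, against 41.9%. Among genes above 3 reads throughout, the highest library exceeded the lowest by a median of 4.37-fold for members and 6.11-fold for all listed genes. It did so by less than 2-fold for 5.66% of these members and 5.12% of these genes. Members were not compared with genes of like level, so what part the level has in these differences was not tested. The members took 1.32%, 0.875% and 0.821% of the reads in *Trf1+/+* replicates 1, 2 and 3 and 0.950%, 0.726% and 1.24% in *Trf1flox/flox* replicates 1, 2 and 3. In summed normalized counts the library labelled *Trf1+/+* replicate 1 stood apart with 144096, and the other 5 lay between 83111 and 89514. It held the highest value of 34 of the 86 members, yet 22 members had at most 3 reads there, against 10 and 9 in the other *Trf1+/+* libraries and 12, 17 and 1 in *Trf1flox/flox* replicates 1, 2 and 3. Because the reads carry no molecular identifiers, this floor of 3 reads covers counting error only.

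**Figure D1:**
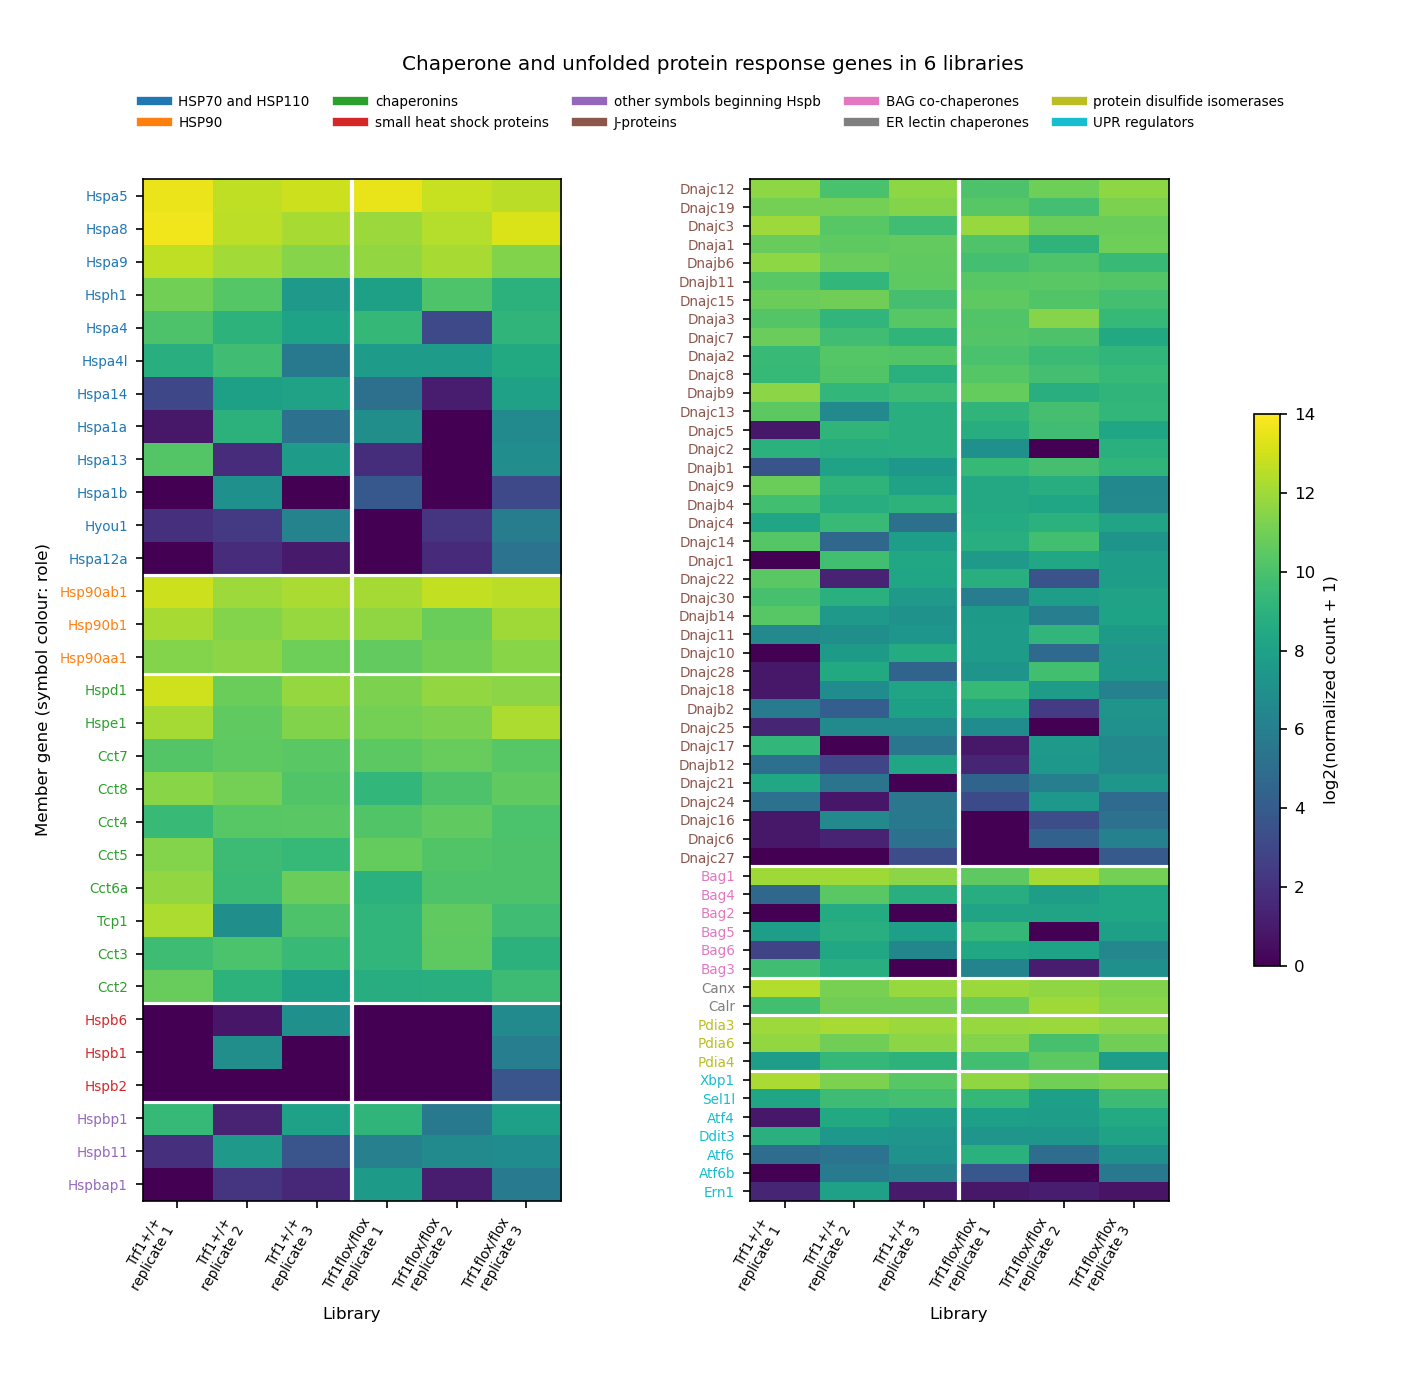
Level of each of the 86 members (rows, symbols coloured by role and ordered by median within a role) in the 6 libraries (columns) as log2 of the normalized count plus 1. The HSP90 genes, the chaperonins and the main HSP70 genes are bright in every column, the small heat shock proteins are dark in most, and dark cells are most frequent in *Trf1+/+* replicate 1 (22 members at 3 reads or fewer).

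The groups were compared on the scale of log2(normalized count + 1) and tested with limma over 9966 genes. This scale shrinks the change of genes that are low in all libraries. A library without reads beside others with many can instead enlarge it: *Bag2* had a log2 fold change of 5.34 here, 1.10 in edgeR and 1.18 in DESeq2. No member had an adjusted p under 0.05. Over all tested genes the percent at this threshold was 0.0%, and the smallest adjusted p of a member was 0.996, which is also that of each member whose log2 fold change is given below. No member had an unadjusted p under 0.05 either (smallest 0.0584, *Dnajb1*), while 4.56% of all tested genes did. The groups did not overlap for 4 members: *Dnajb1* and *Dnajc11* were higher in *Trf1flox/flox* libraries (2 of 77, 2.60%, against 5.35% of all tested genes) and *Dnajb4* and *Dnajb6* were lower (2.60%, against 3.33%). With 2 members in each direction, these shares do not set the members apart from all tested genes. The median log2 fold change of the members was -0.12 and that of all tested genes 0.20. With the libraries rescaled to the same upper quartile these were 0.15 and 0.44, and the share of members with a positive value moved from 46.8% (36 of 77) to 57.7%. It was 37.7% with edgeR and 36.4% with DESeq2. Among all tested genes the share was 55.9%, and 64.0% after upper quartile scaling, 48.3% with edgeR and 48.3% with DESeq2. The share of members was below that of all tested genes in each of these fits, but above it without the library labelled *Trf1+/+* replicate 1 (given below). No direction of the set as a whole can be given. The spread within groups was smaller for members than for all tested genes, with a median SD of 1.20 against 2.17 on the log2 scale. Genes of like level were not compared here either.

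Without the library labelled *Trf1+/+* replicate 1, 53.9% of members were positive with a median of 0.11, against 49.0% and -0.024 for all genes tested then. The groups did not overlap for 5 higher and 8 lower members (6.58% and 10.5%, against 9.17% and 8.76% of the genes tested then). Without the library labelled *Trf1flox/flox* replicate 1, 48.1% were positive with a median of -0.043, against 53.8% and 0.13 for all genes tested then. In that fit 3 higher and 3 lower members did not overlap (3.90% each, against 8.23% and 7.04%). Without the library labelled *Trf1+/+* replicate 1 and *Trf1flox/flox* replicate 2 together, which had the next largest number of members at 3 reads or fewer, these counts were 9 and 13 (12.5% and 18.1%, against 13.7% and 15.1%), and no member had an unadjusted p under 0.05.

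**Figure D2:**
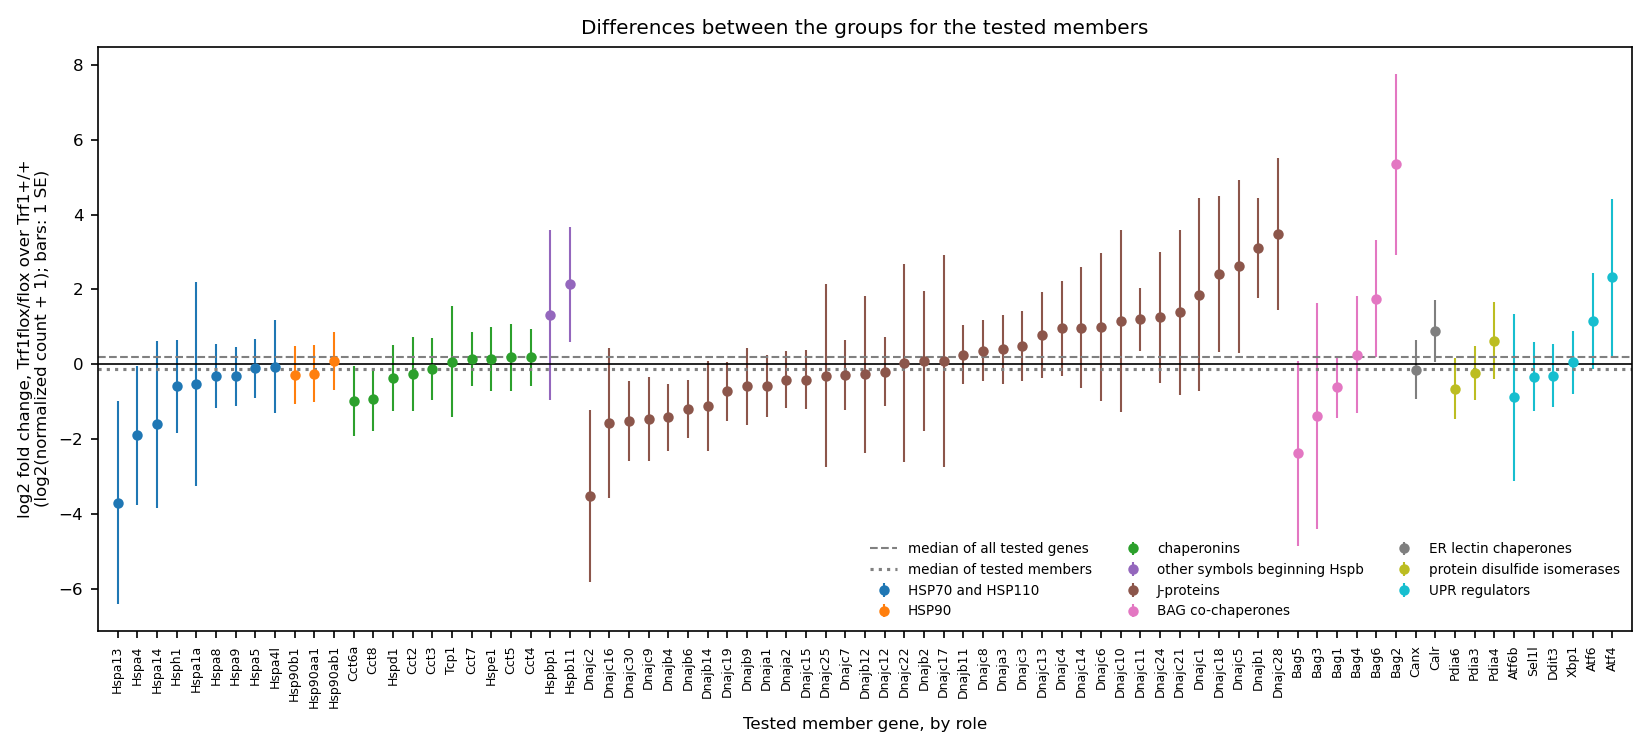
log2 fold change of *Trf1flox/flox* over *Trf1+/+* (vertical axis, on the log2(normalized count + 1) scale) of the 77 tested members, grouped by role along the horizontal axis, with bars of 1 standard error. The dashed line is the median of all tested genes (0.20) and the dotted line that of the members (-0.12). Values run from -3.69 (*Hspa13*) to 5.34 (*Bag2*), and the longest bars belong to genes at 0 or near it in some libraries.

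The HSP70 proteins do most of the binding of unfolded chains, each in its own compartment. Per kilobase of annotated exon, *Hspa5* (BiP, of the ER), *Hspa8* (Hsc70, of the cytosol) and *Hspa9* (mortalin, of mitochondria) had median levels of 1780.5, 1384 and 879 normalized counts over the 6 libraries. *Hspa8* had 13222, 6290.5 and 4615 in *Trf1+/+* replicates 1, 2 and 3 and 3765, 5611 and 9341 in *Trf1flox/flox* replicates 1, 2 and 3. The 2 groups overlapped over most of their range. *Hspa9* had 6538, 4224 and 2783 and 3355, 4569 and 2587 in the same order, in which values are given from here on. *Hspa4* (chromosome 11, 53259814 to 53300457), a cytosolic exchange factor of the HSP110 family, had 1085, 535 and 273 and then 639, 7.65 and 562, so that *Trf1flox/flox* replicate 2 alone was low. Its log2 fold change was -1.89 (standard error, SE, 1.85), and it was 0.15 without that library. *Hsph1*, which encodes HSP110 itself, had 2078, 1283 and 182 and 247, 1126 and 513.

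Of the 12 HSP70 and HSP110 genes, 6 had more than 3 reads in all 6 libraries, and *Hspa13* and *Hspa14* were among those that did not. *Hspa13*, which encodes a microsomal HSP70-like ATPase (chromosome 16, 75745431 to 75767104), had 1218, 2.49 and 208 and 2.58, 0 and 115 normalized counts, with a log2 fold change of -3.69 (SE 2.71). *Hspa14*, whose protein binds the ribosome, had 7.13, 249 and 263 and 34.4, 1.09 and 261, with a log2 fold change of -1.60 (SE 2.23). Libraries of the same group differed by more than the groups did for both genes. *Hyou1*, the large HSP70 of the ER, was low in both groups, with 2.67, 4.14 and 75.9 and 0, 3.28 and 57.2. All 9 tested genes of the family had a negative log2 fold change, but 3 of 10 were positive after upper quartile scaling and 4 of 8 without the library labelled *Trf1+/+* replicate 1, and none of them passed the test.

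The HSP90 genes were among the most even members. *Hsp90ab1*, the constitutive cytosolic form, had 7851, 3888 and 4799.8 and 4425, 6612 and 6028 normalized counts, a log2 fold change of 0.09 (SE 0.77). *Hsp90aa1*, the inducible form, had 2717, 3018 and 1915 and 1589.6, 2041 and 2893, a log2 fold change of -0.25 (SE 0.76). *Hsp90b1* (GRP94), the form of the ER, had 4601, 2709 and 3675 and 3245, 1875 and 4161, a log2 fold change of -0.28 (SE 0.78). Each of these differences was smaller than its standard error, and their signs are not stable: that of *Hsp90aa1* turned with upper quartile scaling, that of *Hsp90b1* with array weights and that of *Hsp90ab1* with a library left out. Per kilobase of exon, *Hsp90ab1* had a median of 1805 over the 6 libraries, *Hsp90b1* 858 and *Hsp90aa1* 605, and the ranges of *Hsp90b1* (465 to 1141) and *Hsp90aa1* (404 to 768) overlapped.

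The chaperonins were read in every library. The CCT ring, which folds actin and tubulin, has 8 subunits (*Tcp1* and *Cct2* to *Cct8* with *Cct6a*), and all had more than 3 reads in all 6 libraries. Their sum was 18435, 8136 and 8388 in *Trf1+/+* and 6944, 10058 and 8244 in *Trf1flox/flox* libraries. The subunits stand in the ring in equal numbers, yet their levels per kilobase of exon spanned 28.1-fold in *Trf1+/+* replicate 2, where *Tcp1* was at 123 normalized counts, and 2.44-fold in *Trf1flox/flox* replicate 2. *Tcp1* had 4949, 123 and 1101 and 601, 1544 and 850.3, and *Cct2* had 1727, 529 and 261 and 424, 440.4 and 762. *Cct6a* had 3386, 738 and 1769.7 and 491, 1100.5 and 1094, a log2 fold change of -0.97 (SE 0.93). *Cct8* had 2903, 2129 and 1181 and 617, 1098 and 1540.1, a log2 fold change of -0.93 (SE 0.84). Both were negative under every alternative run, and neither passed the test under any. *Cct6a* shares exon bases with *Psph*, *Cct8* with *Usp16*, *Tcp1* with *Mrpl18*, *Gm26130* and *Acat3*, and *Cct7* with *Pradc1*, which libraries without strand cannot divide. The lengths count every annotated exon of a gene. What part this and the shared bases have in the span of the subunits was not tested.

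The mitochondrial chaperonin pair was abundant. *Hspd1* (HSP60) had 8093, 1861 and 3526 and 2393, 3444 and 3062 normalized counts, a log2 fold change of -0.36 (SE 0.88), and its lid *Hspe1* (HSP10) had 4469, 1546 and 2643 and 2137, 2374 and 4956. The genes lie head to head on chromosome 1 (55077835 to 55088243 and 55088132 to 55091307) and overlap in exon bases. With *Hspa9* and the mitochondrial J-proteins *Dnaja3*, *Dnajc15* and *Dnajc19* they summed to 24377, 12373 and 13895 in *Trf1+/+* and 11813, 15267 and 14557 in *Trf1flox/flox* libraries. The sum of the library labelled *Trf1+/+* replicate 1 stood well above the other 5.

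J-proteins deliver substrates to HSP70 and start its ATP hydrolysis, and with 37 genes, 36 of them tested, they were the largest family. Of the tested genes 20 had a positive and 16 a negative log2 fold change, with edgeR 16 and 20, and the 4 members without overlap between groups were all of this family. *Dnajb1* (ENSMUSG00000005483, chromosome 8, 83608193 to 83612653), the heat-inducible J-protein HSP40, had 11.6, 267 and 172 in *Trf1+/+* and 670.2, 947 and 572 normalized counts in *Trf1flox/flox* libraries. All 3 *Trf1flox/flox* libraries were more than 2-fold above the highest *Trf1+/+* library, and the lowest value was that of the library labelled *Trf1+/+* replicate 1. Averages of 150.3 ± 129 (SD, n = 3) and 729.9 ± 195 (SD, n = 3) resulted, and the log2 fold change was 3.10 (SE 1.33, limma adjusted p = 0.996). Without that library the log2 fold change was 1.73 (SE 0.72), and leaving out a library cannot make separate groups overlap. The unadjusted p was 0.0271 in limma with a mean-variance trend, a fit added after the data were seen that calls 3.13% of all tested genes at this level, 0.0326 in DESeq2 and 0.0807 in edgeR, and no fit gave an adjusted p under 0.05. DESeq2 gave 0.617% of the 9407 genes for which it reports an adjusted p such a value.

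*Dnajc11* (ENSMUSG00000039768, chromosome 4, 151933691 to 151982137), a protein of the mitochondrial contact site complex, had 95.3, 126 and 164 and then 215, 582 and 196 normalized counts. The gap between the groups was narrow, since the lowest *Trf1flox/flox* and the highest *Trf1+/+* library differed by less than the *Trf1+/+* libraries among themselves. Its log2 fold change was 1.21 (SE 0.84). In the other direction, *Dnajb6* (ENSMUSG00000029131, chromosome 5, 29735688 to 29818134), which holds back the aggregation of polyglutamine proteins, had 3116, 1815 and 1540.1 and then 897, 1139 and 713. Its log2 fold change was -1.19 (SE 0.77), the unadjusted p was 0.0411 with the trend, 0.0266 in edgeR and 0.0305 in DESeq2, and some of its exon bases are also those of *Gm5129*. *Dnajb4* (ENSMUSG00000028035, chromosome 3, 152178511 to 152210302), a cytosolic relative of *Dnajb1*, had 866, 422 and 524 and then 342, 310.4 and 95.1, a log2 fold change of -1.41 (SE 0.89). Over all alternatives run the log2 fold change lay between 1.52 and 3.94 for *Dnajb1*, 0.51 and 1.49 for *Dnajc11*, -1.40 and -0.89 for *Dnajb6* and -1.74 and -0.82 for *Dnajb4*.

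Among the other J-proteins *Dnajc28* had the highest log2 fold change, 3.47 (SE 2.02), from 0.891, 365 and 21.7 and then 149, 862 and 166 normalized counts, so that *Trf1+/+* replicate 2 lay above all but 1 of the *Trf1flox/flox* libraries. *Dnaja1*, a farnesylated partner of Hsc70, had 1738, 1486 and 1584 and 1128, 552 and 1954. The other tested J-proteins had log2 fold changes between -3.52 and 2.61, and their groups overlapped.

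**Figure D3:**
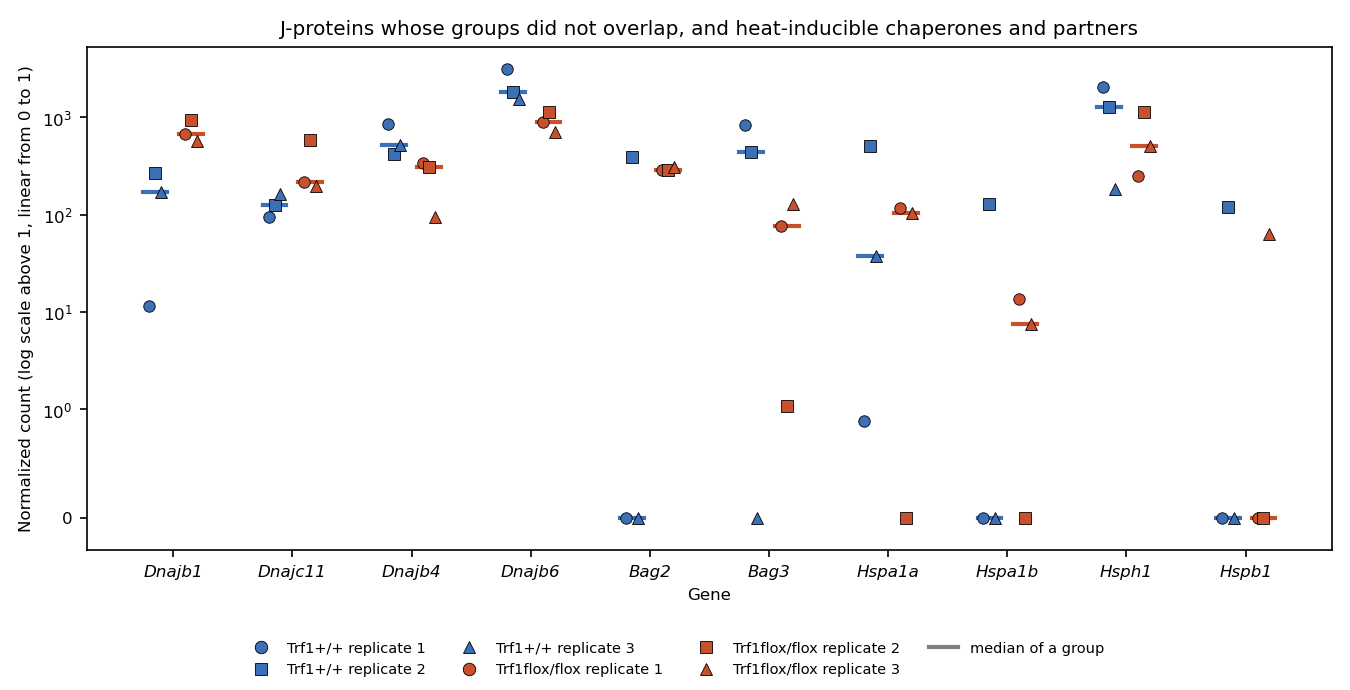
Normalized count (vertical axis, logarithmic above 1 and linear from 0 to 1) of the 4 J-proteins whose groups did not overlap, of *Bag2* and of further heat-inducible genes in each library, in blue for *Trf1+/+* and red for *Trf1flox/flox*, with a marker shape for each replicate and a line at the median of each group. For *Dnajb1* all red points (572 to 947) lie above all blue ones (11.6 to 267), for *Dnajb6* all red points (713 to 1139) lie below the blue ones, and *Hspa1a*, *Hspa1b*, *Bag3* and *Hspb1* have points at 0 in at least 1 library.

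The other classic heat shock genes did not share the pattern of *Dnajb1*. *Hspa1a*, the inducible HSP70, had 0.891, 504 and 37.4 and 118, 0 and 105 normalized counts, and its near copy *Hspa1b*, with which it may exchange reads, had 0, 130.1 and 0 and 13.7, 0 and 7.58. *Bag3*, the exchange factor that leads clients to autophagy, had 844, 439 and 0 and 77.3, 1.09 and 129. *Hspb1* (HSP27) was listed at 0 in 4 libraries and had 120.1 in *Trf1+/+* replicate 2 and 63.4 in *Trf1flox/flox* replicate 3. For these 4 genes the libraries with the transcript differed from gene to gene, and *Trf1+/+* replicate 2 was the highest for *Hspa1a*, *Hspa1b* and *Hspb1* but not for *Bag3*. The 6 heat-inducible genes together (with *Dnajb1* and *Hsph1*) summed to 2935, 2743 and 392 in *Trf1+/+* and 1126, 2074 and 1389.9 in *Trf1flox/flox* libraries, which overlap. The small heat shock proteins of muscle, *Hspb2* and *Hspb6*, were at 0 in 5 and 3 libraries. *Hspb2* had 11.7 normalized counts in *Trf1flox/flox* replicate 3, and *Hspb6* had 130.1 in *Trf1+/+* replicate 3 and 98.5 in *Trf1flox/flox* replicate 3.

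The 6 BAG genes had log2 fold changes from -2.37 to 5.34. *Bag2* (ENSMUSG00000042215, chromosome 1, 33745484 to 33757795), which holds back the ubiquitin ligase CHIP, had 0, 389 and 0 in *Trf1+/+* and 285, 286 and 313 normalized counts in *Trf1flox/flox* libraries. The 3 *Trf1flox/flox* libraries were close to each other, and *Trf1+/+* replicate 2 lay above all of them. The log2 fold change was 5.34 (SE 2.43, limma adjusted p = 0.996). It depends on how a 0 is read: it was 3.16 with a pseudocount of 10, 1.10 in edgeR and 1.18 in DESeq2. Without *Trf1+/+* replicate 2 it was 8.21 (SE 0.82, limma adjusted p = 0.163), the smallest adjusted p of a member in any of the fits. *Bag5* had 219, 433 and 236 and 649, 0 and 250.1, a log2 fold change of -2.37 (SE 2.47), and 0.037 in edgeR and 0.026 in DESeq2. *Bag6*, which captures membrane proteins that were not inserted, had 6.23, 339 and 83.8 and 325, 279 and 86.8, a log2 fold change of 1.75 (SE 1.57). *Hspbp1*, an exchange factor of HSP70, and *Hspb11*, a component of intraflagellar transport that is not a chaperone in spite of its symbol, are the tested genes with other symbols that begin Hspb. *Hspbp1* had 671, 1.66 and 254 and 577, 49.2 and 237 (log2 fold change 1.31, SE 2.27), and *Hspb11* had 2.67, 189 and 11.8 and 67.9, 97.3 and 111 (log2 fold change 2.13, SE 1.54).

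The ER chaperones were at high level in both groups. The 6 genes with an ERSE were above 3 reads in every library and summed to 30442, 16637 and 21120.5 in *Trf1+/+* and 27088, 19318 and 19440 normalized counts in *Trf1flox/flox* libraries, which overlap. *Hspa5* (ENSMUSG00000026864, chromosome 2, 34771970 to 34777547), the most used readout of ER stress, had 12229, 6416 and 7877 and then 11769.6, 7182 and 5904, averaging 8841 ± 3024 (SD, n = 3) and 8285 ± 3084 (SD, n = 3). *Calr* had 879, 1962 and 1997 and 1849.9, 4119 and 2936, a log2 fold change of 0.90 (SE 0.82). It was positive under every alternative run, between 0.24 and 1.20, and passed the test under none. *Canx* had 5308, 2248 and 3663 and 3798, 3329.8 and 2580.0, a log2 fold change of -0.14 (SE 0.78), which turned positive with upper quartile scaling. *Dnajc3*, the inhibitor of PERK known as P58IPK, had 3965, 1332 and 841 and 3709, 1825 and 1836.

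Of the disulfide isomerases, *Pdia3*, the partner of calnexin and calreticulin, was the most even, with 3992, 4526 and 3818 and 3701, 3861 and 3008 normalized counts. Its log2 fold change was -0.23 (SE 0.72). *Pdia6* had 3459, 1970.3 and 3067 and 2716, 987 and 2021, a log2 fold change of -0.65 (SE 0.82). *Pdia4* had 220.0, 643 and 535 and 879, 1396 and 232, a log2 fold change of 0.64 (SE 1.02). The ERSE genes whose fold change is given did not move as a block: *Calr* had a positive value and *Canx*, *Hsp90b1* and *Pdia6* negative ones. These values were all within about 1 standard error of 0. *Hspa5* and *Dnajc3*, which also hold the element, are given by level only, and their groups overlapped.

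**Figure D4:**
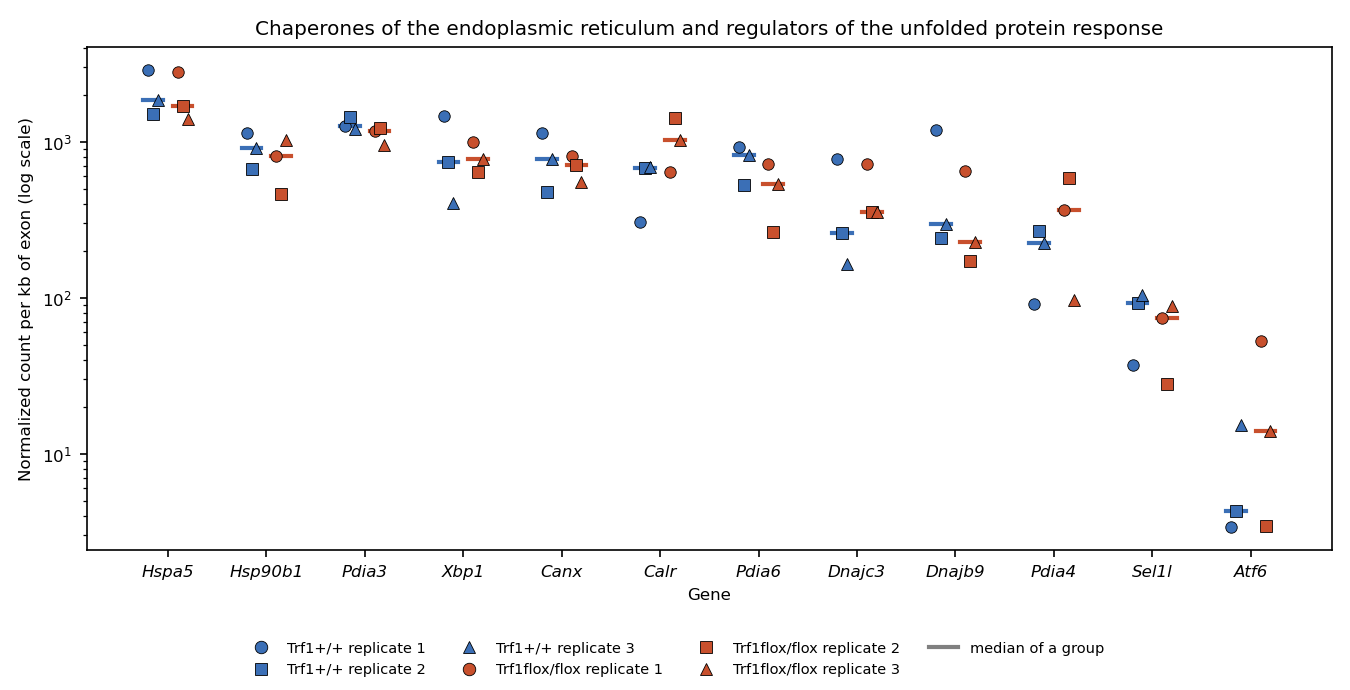
Normalized count per kilobase of annotated exon (vertical axis, logarithmic) of ER chaperones and of regulators of the unfolded protein response in each library, blue for *Trf1+/+* and red for *Trf1flox/flox*, with lines at the group medians. The groups overlap for every gene shown, *Hspa5* is highest (medians 1863 and 1698) and *Atf6* lowest.

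Apart from *Xbp1*, no regulator exceeded 896 normalized counts (*Sel1l*) in any library. The ER chaperones *Hspa5*, *Canx* and *Pdia3* were above that level in every library, and *Hyou1* was below it in every library. *Calr*, *Dnajc3*, *Pdia4* and *Dnajb9* were below it in some libraries and above it in others. These counts are not divided by exon length. *Xbp1* (ENSMUSG00000020484, chromosome 11, 5520659 to 5525893), whose mRNA IRE1 splices under stress, had 4744, 2413 and 1315 and then 3248, 2065 and 2506 normalized counts, a median of 757 per kilobase of exon over the 6 libraries. Counts per gene do not tell the spliced from the unspliced form. *Atf4*, the transcription factor whose translation rises when eIF2α is phosphorylated, had 0.891, 356 and 229 and 235, 217 and 372, a log2 fold change of 2.32 (SE 2.09) that rests on the library labelled *Trf1+/+* replicate 1 and was -0.10 without it. *Atf6*, the sensor that is cut in the Golgi, had 31.2, 39.8 and 142 and 489, 31.7 and 129, a log2 fold change of 1.16 (SE 1.28). *Atf6b*, its relative, had 0, 56.3 and 74.9 and 12.9, 0 and 49.6, a log2 fold change of -0.88 (SE 2.23). *Ddit3* (CHOP), the death-associated target of ATF4, had 471, 176 and 159.6 and 154, 170.5 and 268, with *Trf1+/+* replicate 1 as the highest library. *Sel1l*, the scaffold of the HRD1 ubiquitin ligase, had 316, 795 and 896 and 631, 238 and 762, and *Dnajb9* (ERdj4), which restrains IRE1, had 3042, 613 and 761 and 1645, 439 and 582. The groups of all these genes overlapped.

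*Ern1*, which encodes IRE1, was read in a single library: *Trf1+/+* replicate 2 had 253 normalized counts from 305 reads, and no other library had more than 2 reads. The same held for *Hspa12a* (56 reads in *Trf1flox/flox* replicate 3 and at most 3 elsewhere) and *Hspb2* (17 reads in *Trf1flox/flox* replicate 3 and 0 elsewhere).

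Genes of the same pathways outside the symbol rule were read from 6 lists of 132 genes in all, of which 118 were listed and 112 tested. None had an adjusted p under 0.05 in limma, 4 had an unadjusted p under 0.05 with a higher value in *Trf1flox/flox* libraries (3.57%, against 3.54% of all tested genes) and 2 with a lower one (1.79%, against 1.01%), and the median log2 fold change was 0.13, against 0.20 for all tested genes. Among heat shock factors and cytosolic co-chaperones 9 of 20 tested genes were positive (median -0.08), with 3 at an unadjusted p under 0.05: *Fkbp5*, a co-chaperone of the glucocorticoid receptor on HSP90, had 30.3, 20.7 and 63.1 and 192, 370.5 and 434 normalized counts (log2 fold change 3.16, SE 0.85, limma adjusted p = 0.580), and *Sgtb* and *Unc45a* had log2 fold changes of 3.71 and 4.07. *Hsf1*, the main heat shock factor, had 197, 135 and 213 and 0.859, 313 and 107.

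In the list of ER-associated degradation 18 of 26 tested genes were positive (median 0.81), and the same counts held for ER oxidoreductases and folding partners (median 0.43), beside 55.9% of all tested genes. In each list 10 of the 18 positive genes had at most 3 reads in the library labelled *Trf1+/+* replicate 1. Without that library the ER-associated degradation list had 19 of 26 positive genes with a median of 0.30 and the oxidoreductase list 16 of 25 with a median of 0.21, while the median turned to 0.044 for the cytosolic co-chaperones, 0.12 for prefoldin, 0.14 for the mitochondrial list and -0.15 for UPR signalling. *Edem3*, which trims mannose from glycoproteins, had 0, 0.829 and 19.7 and 419, 224 and 72.4 normalized counts (log2 fold change 5.83, SE 1.42, limma adjusted p = 0.445), while the ligase gene *Marchf6* had 1766, 892 and 985 and 85.9, 160 and 633 (log2 fold change -2.49, SE 1.02, limma adjusted p = 0.996). In the list of UPR signalling 11 of 20 were positive (median 0.10), and *Mbtps1*, the protease that cuts ATF6, had 1181, 268 and 163 and 6.01, 7.65 and 112 (log2 fold change -4.30, SE 1.44, limma adjusted p = 0.891). Prefoldin had 3 of 8 (median -0.17) and the mitochondrial chaperones and proteases 4 of 12 positive genes (median -0.13), with none at an unadjusted p under 0.05. *Fkbp5*, *Sgtb*, *Unc45a*, *Edem3*, *Marchf6* and *Mbtps1* are named for their values, which were seen first.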

How the data were processed

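The deposited table holds, for 12125 genes in 6 libraries, read counts that the authors divided by DESeq2 size factors (a signal in normalized counts, not raw counts). Per the study's methods, reads were trimmed with bbduk, aligned with TopHat 2.0.10, Bowtie 1.0.0 and SAMtools 0.1.19 and counted with HTSeq 0.6.1 on GRCm38 annotation. The submitters' processing notes name GRCm39. The table carries gene symbols only, so positions were taken from GENCODE M21 (GRCm38) and promoters from RefSeq (GRCm38.p6). Multiplying by the size factor gave whole reads for 100.0% of values within 0.1 read.

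Members and lists were chosen with earlier results of these data known. The 9966 genes that reached 10 normalized counts in 3 or more libraries were tested on log2(value + 1), without covariates, with limma 3.58.1 in R 4.3.3 and Benjamini-Hochberg adjustment. The labels do not name the mouse of a library, while the study gives n = 3 mice in each group for its results from this sequencing. The p-values measure only the spread between these libraries. edgeR 4.0.16 and DESeq2 1.42.0 were run on the recovered reads as alternatives, beside other pseudocounts, filters and scaling, array weights and each library left out. A mean-variance trend and the removal of 2 libraries together were chosen after seeing the data. The fits were also run on simulated counts that spread less between libraries than these data do. That run does not show how the fits perform on these data. Fold changes are given for up to 3 members of smallest p per role and for members whose groups did not overlap, and other textbook members are given by level. *Hspa1a* and *Hspa1b* may share reads, as may genes with overlapping exons, since strand was not kept.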

Additional observations from a re-analysis of the deposited data

How the results depend on the processing

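No member had an adjusted p under 0.05 in any of the fits. The count of members with an unadjusted p under 0.05 and a higher value was 0, and it was 1 with a pseudocount of 10, with DESeq2 and with the trend, and 0 to 4 with a library left out. The count with a lower value was 0, and it was 1 with edgeR, DESeq2 and the trend, and 0 to 1 with a library left out. The 5 calls without *Trf1+/+* replicate 2 were 6.58% of members, against 5.86% of all genes tested then. Members without overlap numbered 2 to 7 (higher) and 3 to 10 (lower) with a library left out, where fewer libraries make overlap less likely, and 9 and 13 with 2 left out. The 7 higher members (without *Trf1+/+* replicate 2) were 9.21%, against 10.7% of all genes, and the 10 lower ones (without *Trf1+/+* replicate 3) 13.5%, against 11.8%. Among named genes 396 of 426 values kept their sign, and the causes of the others were not tested. Upper quartile scaling gave 0.14 for *Canx*, 0.031 for *Hsp90aa1* and 0.051 for *Pdia3*. Array weights gave 0.089 for *Hsp90b1*, 0.056 for *Hspd1* and -0.29 for *Pdia4*. For *Bag5* edgeR gave 0.037 and DESeq2 0.026, and for *Hspbp1* DESeq2 gave -0.070. With a library left out, the log2 fold change ran from -0.095 to 3.69 for *Atf4*, -2.89 to 0.70 for *Atf6b*, -4.16 to 0.51 for *Bag5*, -0.46 to 0.16 for *Canx*, -0.13 to 0.38 for *Hsp90ab1*, -0.54 to 0.039 for *Hsp90b1*, -3.26 to 0.25 for *Hspa14*, -2.96 to 0.15 for *Hspa4*, -1.12 to 2.87 for *Hspbp1* and -0.86 to 0.20 for *Hspd1*. With 2 left out it was 0.33 for *Bag5*, -0.0049 for *Bag6*, 0.13 for *Canx*, 0.22 for *Hsp90b1*, 0.65 for *Hspa4*, 0.080 for *Hspd1* and -0.38 for *Pdia4*. No paired analysis was possible because the labels give no shared replicate numbers. With 3 libraries a group, an exact permutation test cannot give a p below 0.1.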
